A study of Mus musculus with 39 samples.

Results

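Promoter regions that were open in all 6 ATAC-seq libraries of the series are described here. They were chosen by the measured peaks themselves: the peaks of the 6 lists were merged where they overlapped by at least 1 bp, and autosomal merged regions were kept that held a peak in every list, were under 2000 bp wide and lay within 1 kb of a curated RefSeq start site. The rule kept 12671 regions of the 170156 merged regions on the autosomes and the X chromosome, and of 74590 autosomal regions with a peak in all 6 lists. These values chose the regions and are given as a description. A region that lost its peak in any library could not be a member, so the differences between techniques below are those of regions that stayed above the calling threshold everywhere.

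All nuclei came from the neocortex of adult mice of both sexes that carried the Cre transgene Arc creERT2 (TG/WT) and the reporter R26 CAG-Sun1-sfGFP-Myc, the latter as M/M or M/WT. The mice were injected with tamoxifen before a social interaction test, so that cells with an active Arc promoter around that time carried the Sun1-sfGFP tag on the nuclear membrane. In FANS (fluorescence-activated nuclei sorting) the tagged nuclei were sorted by flow cytometry, and in INTACT (isolation of tagged nuclei) they were captured on antibody-coated magnetic beads. Each technique gave 3 ATAC-seq libraries, which the methods describe as technical replicates of the same biological source, so every error and p-value below measures technical spread and not the variation between animals. Nuclear RNA-seq of the same kind of nuclei, in 3 batches, was used only to describe the level of the genes at these promoters.

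ATAC-seq reads out where the Tn5 transposase can insert into DNA. Active promoters are kept free of nucleosomes just upstream of the start site, mostly lie in CpG islands in mammals, and are among the tallest accessible sites in any cell, because their factors (SP/KLF, NRF1, ETS, NFY and others) are present in nearly all cell types. Promoters of housekeeping genes are open in all cells, whereas those of genes used by particular cell types are open mainly in these.

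The 150 bases immediately upstream of the start site are shown for 6 members whose values are described below, read on the strand of the gene from the mm10 assembly (GRCm38). Pola2 and Nup85 are examples of the promoters that lay lowest in INTACT relative to FANS, and Sucnr1 and Tecrl of those that lay highest. Exo1 is an example of the tallest members, and Arc is the gene that drives the tag. Capitals mark exact matches, on either strand, to the SP/KLF letters GGGCGG and the NFY letters GCCAAT, the only ones of 10 searched motifs that these stretches hold.
Pola2, chr19:5964207-5964356, minus strand: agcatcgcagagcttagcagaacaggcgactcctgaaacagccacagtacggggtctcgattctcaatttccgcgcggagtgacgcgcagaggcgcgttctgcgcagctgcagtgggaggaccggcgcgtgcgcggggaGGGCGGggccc
Nup85, chr11:115564294-115564443, plus strand: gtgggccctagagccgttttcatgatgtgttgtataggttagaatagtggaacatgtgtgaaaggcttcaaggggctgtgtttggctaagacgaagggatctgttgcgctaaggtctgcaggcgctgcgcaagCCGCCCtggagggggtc
Sucnr1, chr3:60081719-60081868, plus strand: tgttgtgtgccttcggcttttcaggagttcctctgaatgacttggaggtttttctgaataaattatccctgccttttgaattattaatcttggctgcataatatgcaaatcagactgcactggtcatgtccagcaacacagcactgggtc
Tecrl, chr5:83355196-83355345, minus strand: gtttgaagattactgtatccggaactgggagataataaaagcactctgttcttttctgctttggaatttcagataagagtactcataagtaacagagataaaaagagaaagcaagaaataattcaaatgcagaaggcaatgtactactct
Exo1, chr1:175880628-175880777, plus strand: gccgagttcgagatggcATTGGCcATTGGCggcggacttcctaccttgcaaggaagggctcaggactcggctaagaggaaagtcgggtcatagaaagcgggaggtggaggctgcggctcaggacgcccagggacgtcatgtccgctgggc
Arc, chr15:74672571-74672720, minus strand: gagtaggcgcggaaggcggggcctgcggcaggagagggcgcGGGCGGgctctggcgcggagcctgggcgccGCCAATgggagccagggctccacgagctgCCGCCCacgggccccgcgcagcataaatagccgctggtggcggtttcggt
The GC content of these stretches was 66.7% in Pola2, 54.7% in Nup85, 42.7% in Sucnr1, 34.0% in Tecrl, 62.7% in Exo1 and 75.3% in Arc. Pola2 holds 18 CpG dinucleotides and Arc 19, whereas Sucnr1 and Tecrl hold 1 each. The examples overstate the contrast. Over the largest drops named below, Glod4 aside, GC ran from 52.7% in C330018A13Rik to that of Pola2, with 5 (Gm26885) to 18 CpG. Over the largest rises it ran from 34.0% in Tecrl to 60.7% in Neil3, with 0 (Agmo) to 8 (Gm36595) CpG. SP/KLF letters were absent from C330018A13Rik, Gm26885 and Pigq and present in Gm35216. Exo1 carries 2 NFY matches separated by 1 base.

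The members had a median width of 1035 bp (quartiles 840 and 1295 bp), and 11501 of them (90.8%) contained a start site. The nearest start site belonged to a protein-coding transcript in 11564 regions and to a non-coding transcript in 1107, and the nearest genes were 11748 distinct genes. At the limits of the rule, the widest regions inside lay at Gadd45g, Gpbp1 and Sowahb, each 1999 bp wide, and the narrowest outside at Lrrn1, 2000 bp. The farthest inside, 1000 bp from a start site, were at Sema6a, Gm15551 and Jakmip1, and the nearest outside, at 1001 bp, included Mir1249 and Aldh1a1.

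The rule left out promoters that only some libraries detected. Of 14688 autosomal merged regions within 1 kb of a start site that had a peak in all 3 FANS lists, 1471 lacked one in at least 1 INTACT list, and 472 of these had none in any INTACT list. In the other direction, 170 of the 13387 regions present in all 3 INTACT lists lacked a peak in at least 1 FANS list. Under 2000 bp wide, the regions missing from an INTACT list had a median FANS percentile of 28.2, compared with 85.8 for the members. Most of them lacked the INTACT 2 peak: 1235 of 1467 had none there, 911 had none in INTACT 1 and 659 had none in INTACT 3. INTACT 2 also had the shortest list, 99514 peaks, whereas the other 5 lists held between 113224 and 130088.

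Peak height was taken as the fold enrichment of the summit over the local background, and since that ratio has no common scale between libraries, it was ranked among all peaks of its own list and expressed as a percentile from 0 (lowest) to 100 (tallest). Members stood high in every library. Their median percentile was 86.2, 85.9 and 85.8 in FANS 1 to 3 and 80.04, 78.2 and 82.8 in INTACT 1 to 3. All 3 INTACT medians were thus below all 3 FANS medians, at 80.3 ± 2.3 against 86.0 ± 0.187 (SD, n = 3 each). A two-sided exact permutation test of 3 against 3 libraries cannot give a p below 0.1. The INTACT libraries differed more among themselves than the FANS libraries did. The 61373 regions open in all 6 lists but over 1 kb from a start site had medians of 63.7, 65.1 and 65.6 in FANS and 62.4, 57.6 and 65.2 in INTACT, ranges that overlapped. The share of members in the top 10% of their list was 40.1 ± 0.458% in FANS and 31.7 ± 2.7% in INTACT, and for the distant regions it was 11.8 ± 0.613% and 11.1 ± 1.37% (SD, n = 3).

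**Figure D1:**
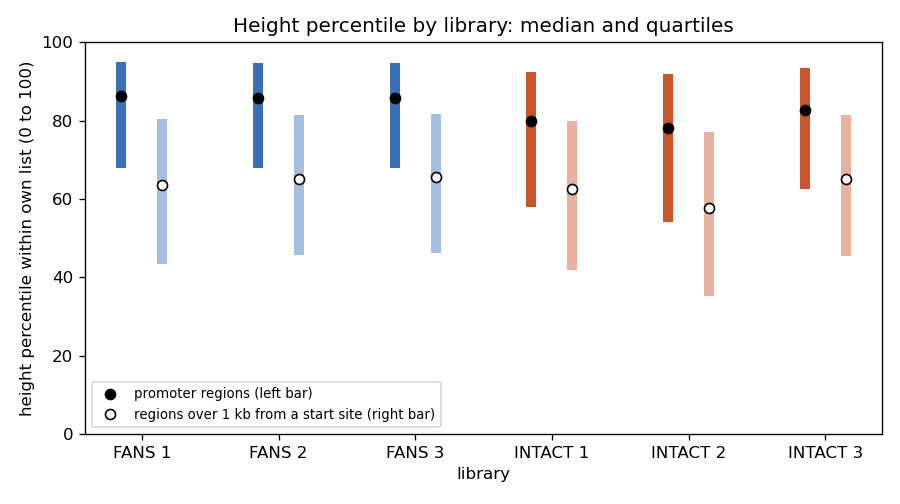
Height percentile within its own list (vertical axis, 0 to 100) in each of the 6 libraries, for the 12671 promoter regions (left bars, black points) and the 61373 regions over 1 kb from a start site (right bars, white points), with bars from the lower to the upper quartile and points at the median. The promoter medians lie between 85.8 and 86.2 in FANS and between 78.2 and 82.8 in INTACT.

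The size of the difference varied with height. The lower quartile of the members was 67.9 ± 0.0704 in FANS and 58.2 ± 4.24 in INTACT, and the upper quartile 94.7 ± 0.163 and 92.6 ± 0.828 (SD, n = 3). When members were grouped into 4 equal parts by their mean percentile over the 6 libraries, the median difference, INTACT minus FANS, was -9.17 points in the lowest part, -6.50 and -3.09 in the middle parts, and -0.48 in the tallest. With ranks among the regions open in all 6 lists, the same parts gave -3.71, -5.08, -2.36 and -0.19, so the lowest part no longer differed most. The share called lower, as defined below, was 13.6%, 17.3%, 17.8% and 6.12%. Percentiles cannot exceed 100, so the tallest members had little room to differ on this scale.

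limma was fitted across all 74590 regions, with a call at an adjusted p under 0.05 (Benjamini-Hochberg). In this fit 7538 regions (10.1%) were lower in INTACT and 4330 (5.81%) were higher. Of the 12671 members, 1737 (13.7%) were lower and 173 (1.37%) were higher, with a median difference of -3.33 points (quartiles -9.10 and -0.19). The counts moved by over 1.5 times with the scale and the fit: p-value ranks gave 6427 lower and 1118 higher, unscaled log2 heights 3239 and 100, and limma without trend 1004 and 87. The regions over 1 kb from a start site gave 5786 lower and 4157 higher calls and a median of -2.41. Thus 90.9% of the calls at promoters and 58.2% of those at distant regions were toward lower INTACT height. Because the lists differed in length, heights were also ranked among the 74590 regions open in all 6 lists alone, where 8.98% of all regions were called lower and 9.67% higher. On that scale 1518 members were lower and 329 higher, the median difference was -1.89, and 82.2% of the member calls were lower. The distant regions then gave 5165 lower and 6884 higher calls (42.9% lower), and their median turned to 0.39, so its direction depended on the scaling. The number of members called lower moved by over 1.5 times without any library but INTACT 2. Without FANS 1, FANS 2 or FANS 3 these were 659, 560 and 651, without INTACT 1 they were 1116, and without INTACT 3 they were 2726. Without INTACT 2 there were 1467 lower and 151 higher. The members called higher were 76, 63 and 70 without each FANS library, and 74 without INTACT 1.

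The groups did not overlap in 5530 members. In 4739 of these (37.4% of members) all 3 INTACT values lay below all 3 FANS values, compared with 26.1% of all regions, and in 791 (6.24%) they lay above, compared with 12.2% of all regions.

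The 8 members with the largest drop in INTACT were at Pola2, C330018A13Rik, A730043L09Rik, Gm26885, Nup85, Rad54l2, Glod4 and Pigq. Pola2, whose product is the B subunit of the DNA polymerase alpha-primase complex, had percentiles of 87.2, 90.8 and 91.6 in FANS and 23.5, 13.2 and 25.2 in INTACT. Its difference was -69.2 ± 5.59 points (SE; limma adjusted p = 0.00243), the largest of any called member. Nup85, a subunit of the nuclear pore, had 82.1, 90.1 and 92.6 in FANS and 46.3, 17.2 and 19.02 in INTACT. Every INTACT value was below every FANS value there, but INTACT 1 lay well above the other INTACT libraries. Rad54l2, a helicase of the SNF2 family, had 85.1, 84.4 and 85.1 in FANS and 15.7, 25.6 and 33.7 in INTACT. Over the 8 members the mean fold enrichment was 10.7 to 15.7 in FANS and 3.91 to 4.90 in INTACT. Their INTACT percentiles reached from the low end of the list nearly to its middle, as in Glod4, with 47.7 in INTACT 3.

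The 8 members with the largest rise were at Nhsl1, Sucnr1, Gm35216, Neil3, Gm36595, Gm34568, Agmo and Tecrl, of which 3 are predicted genes with Gm symbols. Sucnr1, the receptor for succinate, had 20.8, 27.9 and 31.1 in FANS and 75.2, 69.7 and 75.8 in INTACT, a difference of 47.0 ± 5.59 points (limma adjusted p = 0.00327). Tecrl, an enoyl-CoA reductase-like gene, had 41.0, 39.4 and 53.1 in FANS and 77.7, 84.0 and 85.3 in INTACT. Neil3, a DNA glycosylase, had 10.8, 41.5 and 38.2 in FANS and 65.6, 68.0 and 80.9 in INTACT. FANS 1 was far below the other FANS libraries in Neil3. The rule for naming these members took only those without overlap between techniques. The mean fold enrichment of these 8 regions was 3.60 to 6.03 in FANS and 7.25 to 11.9 in INTACT. All 16 calls also passed in each fit without 1 library, with adjusted p-values up to 0.041.

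**Figure D2:**
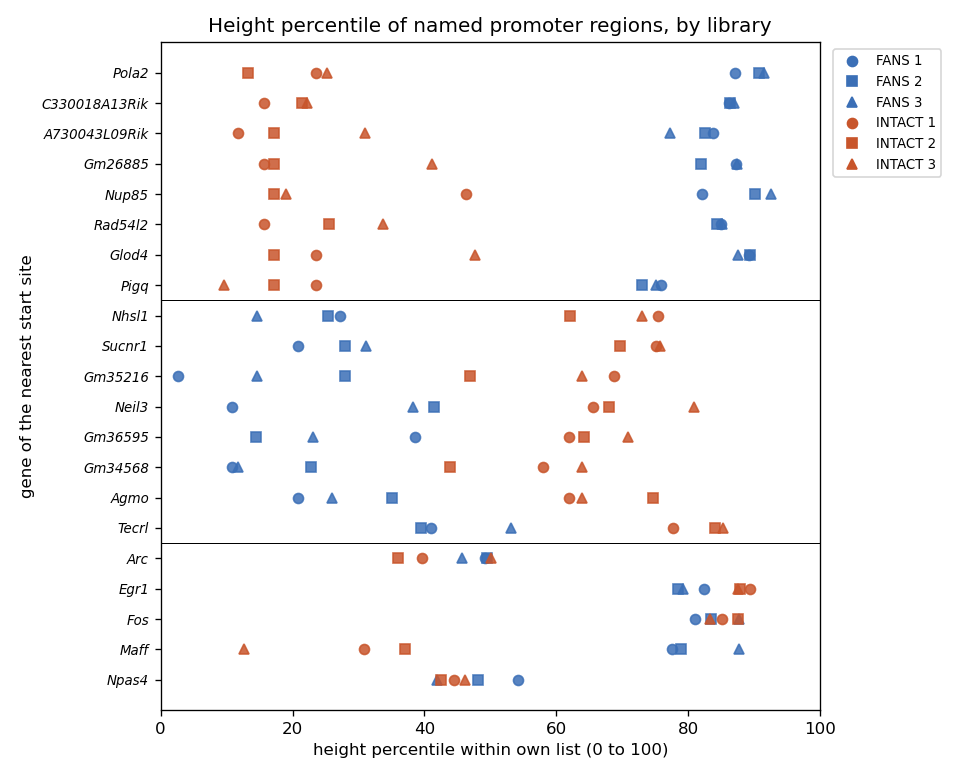
Height percentile within its own list (horizontal axis, 0 to 100) in the 3 FANS (blue) and 3 INTACT (orange) libraries, for the 8 promoter regions with the largest drop in INTACT (top block), the 8 with the largest rise (middle block) and 5 immediate early genes (bottom block; for Arc the region at the start site). Techniques are separated in the top and middle blocks, and Arc lies between 36.0 and 50.2 in all libraries.

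At low heights the percentile moved in steps. Many low peaks share exactly the same fold enrichment: in each list 15 to 22 values, each held by 100 or more peaks, covered 48.6 to 52.9% of the peaks below the median. In INTACT 1, for example, C330018A13Rik, Gm26885, Rad54l2 and Zfp641 all had the percentile 15.7. Among members below the median of their list, 24.02 to 25.5% in FANS and 28.7 to 30.0% in INTACT had such a shared value.

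Gm20594, 2310009B15Rik, Egf and Exo1 were among the 5 tallest members, with percentiles of 99.97 or more in every library. Gm20594 had the greatest height of all members in every library, with a fold enrichment of 34.2 ± 0.421 in FANS and 31.6 ± 1.71 in INTACT (SD, n = 3). It was also the narrowest region, 275 bp, and the only member whose sequence around the summit shared stretches with the mitochondrial genome, in 12.4% of its 25-base words. Exo1, an exonuclease of mismatch repair, had a fold enrichment of 28.6 in FANS and 26.7 in INTACT. The lowest members were at Mir124-2hg, Car7, Ugdh, Gnaz and Bdnf, all with percentiles under 2 in every library and a fold enrichment of 1.91 to 2.41. The brain-derived neurotrophic factor gene Bdnf and the miR-124 host gene are expressed in neurons, and their summits lay at -548 and 73 bp from the nearest start site, with negative values upstream. The summits at Car7, Ugdh and Gnaz lay at -1014, 1069 and 914 bp, and these regions did not contain that start site.

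Fold enrichment and peak significance ranked some members differently. The fold is taken over the local background, whereas the p-value of a peak also depends on how many reads it holds. Ranked by the -log10 p-value of the peak instead, members had a median percentile of 87.0 against 82.8 by fold. In 997 members (7.87%) the p-value percentile was more than 20 points above the fold percentile, and in 0 it was more than 20 points below. Bdnf moved from under 2 to 28.7, Mir124-2hg to 19.04, and the region at the Arc start site from 45.03 to 95.2. This gap was over 20 points in 22 of 48 regions at replication-dependent histone genes and in 12 of 34 at immediate early genes.

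Summits lay just upstream of the start site. The median signed distance was -14 bp in each FANS library and -17, -20 and -18 bp in INTACT 1 to 3, with negative values upstream. The 3 INTACT medians were all farther upstream than the FANS medians, with a mean difference of -4.33 bp, and 55.04 ± 0.176% of FANS and 56.0 ± 0.638% of INTACT summits were upstream (SD, n = 3). Between 55.6 and 57.9% of the summits were within 100 bp of the start site, in all 6 libraries. Within a region the 6 summits spanned a median of 70 bp, 67.4% of the regions had all of them within 100 bp, and the median shift from FANS to INTACT was 0 bp. The tallest members had their median summit at -39 bp, and the lowest at 13 bp.

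The members were rich in GC and CpG. In the window of 100 bp on either side of the median summit, GC was 65.2% and the ratio of observed to expected CpG was 0.82 (medians), compared with 47.3% and 0.22 in the regions over 1 kb from a start site. A ratio of at least 0.6 was found in 75.7% of members and in 5.63% of the distant regions. The members called lower in INTACT had a median GC of 66.7% and those called higher 54.7%. The difference became more negative as GC rose. Its median was 1.72 points in the 96 members with GC under 40%, -1.73 at 45 to 50%, -2.67 at 60 to 65%, -4.56 at 70 to 75% and -5.52 at 75% or more. Ranked among the regions open in all 6 lists, the same ends were 4.61 and -3.91.

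Up to 60% GC the distant regions showed the fall more steeply. Their median difference was 5.20 points with GC under 40%, -5.80 at 50 to 55% and -8.15 at 55 to 60%. Above that it showed no steady fall, with -8.24, -6.90, -7.64 and -9.13 in the 4 bins from 60% up, while the members went on from -2.67 to -5.52. In the tallest class of regions, with a mean percentile of at least 90, and with GC of 60 to 70%, the median was -0.83 in 2126 members and -1.68 in 219 distant regions. At the same GC the medians were -8.18 in 1326 members and -10.4 in 889 distant regions with a mean percentile of 50 to 80, and -4.61 in 1100 members and -4.51 in 272 distant regions with 80 to 90. With GC under 50% the members were lower in every height band: they had -3.32, -2.01, -1.15 and 0.25 in the height bands under 50, 50 to 80, 80 to 90 and at least 90, and the distant regions -1.70, -0.39, 0.37 and 0.39. These medians were not tested against each other.

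**Figure D3:**
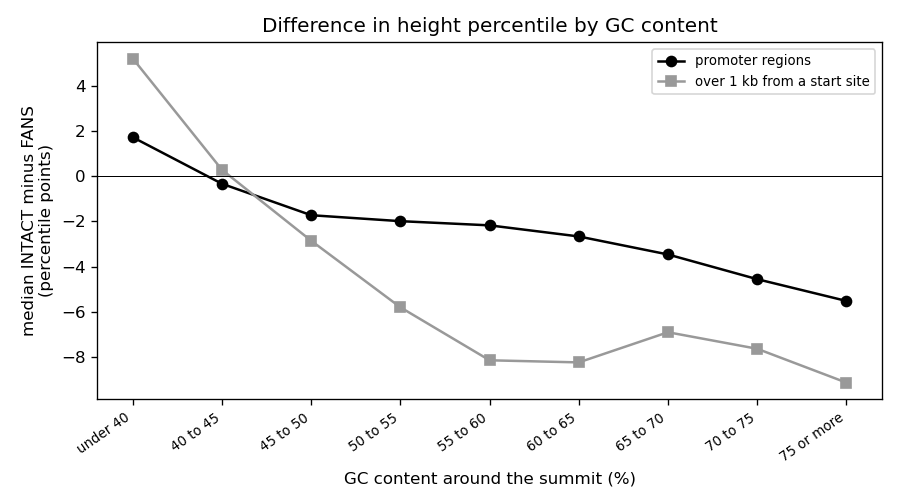
Median difference in height percentile, INTACT minus FANS (vertical axis, points), by GC content within 100 bp of the summit (horizontal axis, percent), for promoter regions (black circles) and regions over 1 kb from a start site (grey squares). Promoter medians run from 1.72 points under 40% GC to -5.52 at 75% or more, and those of distant regions from 5.20 to -9.13.

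The crowding of start sites around a member also went with the difference. The number of curated start sites within 500 kb on either side was used, and the members were grouped into 4 parts, with 1 to 12, 13 to 20, 21 to 35 and 36 to 107 start sites. Their median differences were -1.50, -2.74, -4.54 and -5.62 points, and 5.19%, 9.78%, 19.2% and 21.5% of them were called lower. The median GC was similar across these parts, between 63.2 and 66.2%. Among members with GC of 60 to 70% the medians were -1.21, -2.27, -3.96 and -5.58. The order held in each of the 4 parts by height: from -5.30 to -12.3 points in the lowest, and from -0.12 to -1.02 in the tallest. With ranks among the regions open in all 6 lists, the 4 density parts gave -0.13, -1.39, -3.47 and -4.34.

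**Figure D4:**
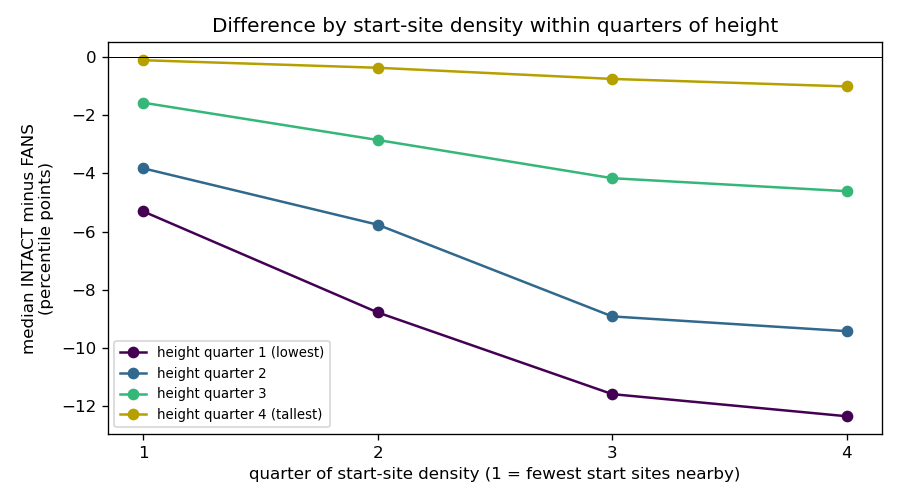
Median difference in height percentile, INTACT minus FANS (vertical axis, points), for promoter regions in 4 parts by the number of start sites within 500 kb on either side (horizontal axis, 1 the fewest), drawn as 1 line for each of the 4 parts by height. All 4 lines fall to the right, from -5.30 to -12.3 points in the lowest members and from -0.12 to -1.02 in the tallest.

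Chromosomes differed as well, but not strictly in the order of their start-site density. On chromosome 11, with a median of 30 start sites nearby, the median difference was -6.57 points and 28.1% of the 994 members were called lower, the largest share of the 19 autosomes. On chromosome 13, with 14 start sites nearby, it was -1.002 points and 6.47% of 541 were lower. On chromosome 7 the median density was 32, the median difference -4.48 and the share lower 18.4%, and on chromosome 3 these were 15, -1.83 and 5.77%. Chromosome 8, with a density of 22, had -2.67 and 8.39%, whereas chromosome 9, with 20, had -4.50 and 17.4%. GC hardly differed between chromosomes 11, 13, 7 and 3, at 64.2% on chromosomes 11 and 13, 63.2% on 7 and 63.7% on 3.

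Of the motifs searched, the SP/KLF letters were the only ones found in most members. Counted as exact matches on either strand in the same window, the SP/KLF letters GGGCGG were in 55.01% of members and 5.94% of distant regions, the NFY letters GCCAAT in 16.8% and 6.95%, the ETS letters CCGGAAG in 13.8% and 0.992%, and the NRF1 letters GCATGCGC in 4.25% and 0.541%. The TATA letters TATAAA were in 3.08% of members and 12.1% of distant regions, and the AP-1 letters TGANTCA in 3.88% and 18.3%. A match is a match of letters and not evidence of binding. Members with NFY letters were taller, with a median percentile of 90.6 against 80.6 without them, and the same was true of ETS letters (90.4 against 80.8) and of the GFY-Staf letters ACTACAA (93.6 against 82.4).

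NFY and NRF1 letters went with different changes. Members called lower in INTACT held NFY letters in 10.9% and NRF1 letters in 7.08%, and those called higher in 23.1% and 0.578%. Among members with GC of 60 to 70%, the median difference in the 4 parts by height, from the lowest up, was -7.35, -5.76, -2.32 and -0.26 with NFY letters and -10.5, -7.36, -3.81 and -0.67 without. For NRF1 letters it was -16.1, -12.4, -4.95 and -1.06 with and -10.1, -6.91, -3.40 and -0.51 without, over 21, 50, 98 and 112 members that held them. The order of these medians was the same in all 4 parts for each motif, but the share called lower did not follow it for NFY in the lowest part, with 17.3% with the letters and 13.9% without. These were not tested, and NRF1 members in the 2nd part had a median of 32.5 start sites nearby compared with 25 without the letters.

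The tallest classes of gene were 3 of housekeeping machinery and, after them, the Zfp zinc finger genes. Each class was described by its counts and medians beside those of all members (13.7% lower, 1.37% higher, median difference -3.33). The 30 regions at tRNA synthetase genes had a median mean percentile of 95.4, the 35 at endoplasmic reticulum folding and stress genes 95.0, the 31 at proteasome genes 94.2 and the 325 at Zfp zinc finger genes 91.8. Of the 325 Zfp regions, 42 were lower and 3 higher, with a median difference of -1.32. Of the 31 proteasome regions, 3 were lower, with a median of -1.30. Psmb6, a catalytic-ring subunit, was the one that changed most, with 94.1, 91.8 and 91.8 in FANS and 40.6, 64.3 and 67.6 in INTACT. Of the 30 tRNA synthetase regions, 2 were lower. The valyl-tRNA synthetase gene Vars had 82.5, 88.1 and 82.1 in FANS and 55.9, 49.8 and 53.3 in INTACT.

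In 3 other machinery classes the share called lower was above that of all members. It was 15 of 66 regions (22.7%) for cytosolic ribosomal proteins, with 1 higher, 14 of 75 (18.7%) for nuclear oxidative phosphorylation genes, and 14 of 63 (22.2%) for RNA polymerase II and Mediator. Their median differences, -3.51, -3.56 and -3.51, were close to that of all members on this scale. With ranks among the common regions they were -3.38, -3.09 and -2.10, against -1.89 for all members, and with p-value ranks -7.59, -6.02 and -4.53, against -3.99. Rpl4 had 77.8, 81.6 and 68.6 in FANS and 34.2, 13.2 and 47.7 in INTACT, although its adjusted p rose to 0.0536 without FANS 2. Rps19 was the only ribosomal promoter called higher, by 4.21 ± 1.14 points (limma adjusted p = 0.0378), but the direction turned when the p-value percentile was used and the call was lost in 10 of 12 alternatives. Med27, a Mediator subunit, fell by 30.6 points, and the complex I assembly factor Ndufaf1 by 32.8, a call lost without any of the 3 FANS libraries. Of the 49 mRNA processing regions, 5 (10.2%) were lower, a share below that of all members, and 1 was higher. Their median, -2.60, was above that of all members, but it was -2.18 with ranks among the common regions and -7.65 with p-value ranks, below all members on both. Snrpc, a protein of the U1 particle, had 99.1, 99.5 and 99.3 in FANS and 76.7, 73.1 and 76.7 in INTACT, a difference of -23.8 ± 1.67 points (SE; limma adjusted p = 0.00243).

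Several classes of neuronal genes stood lower than all members in every library, and so did classes that are not neuronal: the median mean percentile was 63.1 for oligodendrocyte, 58.03 for astrocyte, 49.2 for homeobox and patterning and 32.2 for vascular genes. The 49 regions at voltage-gated ion channel genes had a median mean percentile of 58.5, and 11 (22.4%) were lower, with a median difference of -8.46 points. The potassium channel subunit gene Kcng1 had 57.9, 60.4 and 59.6 in FANS and 4.86, 9.21 and 22.2 in INTACT. The 25 synaptic vesicle and release regions had a median mean percentile of 63.2 and a median difference of -7.44, with 5 lower, but on log2 heights their median differed from that of all members by only -0.00086. For the 27 glutamate and GABA receptor regions the median mean percentile was 63.8, 3 were lower, and the median difference was -6.20. The 10 regions of the clustered protocadherins, cell surface proteins of neurons, gave 2 lower and a median difference of -12.0. Their genes are related copies in clusters, and how reads were divided among them was not tested. These classes lie in the 2 lower of the 4 parts by height, where the median of all members was -9.17 and -6.50 points (-3.71 and -5.08 with ranks among the common regions), and the part of height in their differences was not tested. On the common ranks the 4 classes gave -5.05, -4.34, -2.08 and -8.66 points. On the log2 scale of the fold enrichment, the glutamate and GABA receptors were above the median of all members by 0.06, the opposite order to that of the percentiles.

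**Figure D5:**
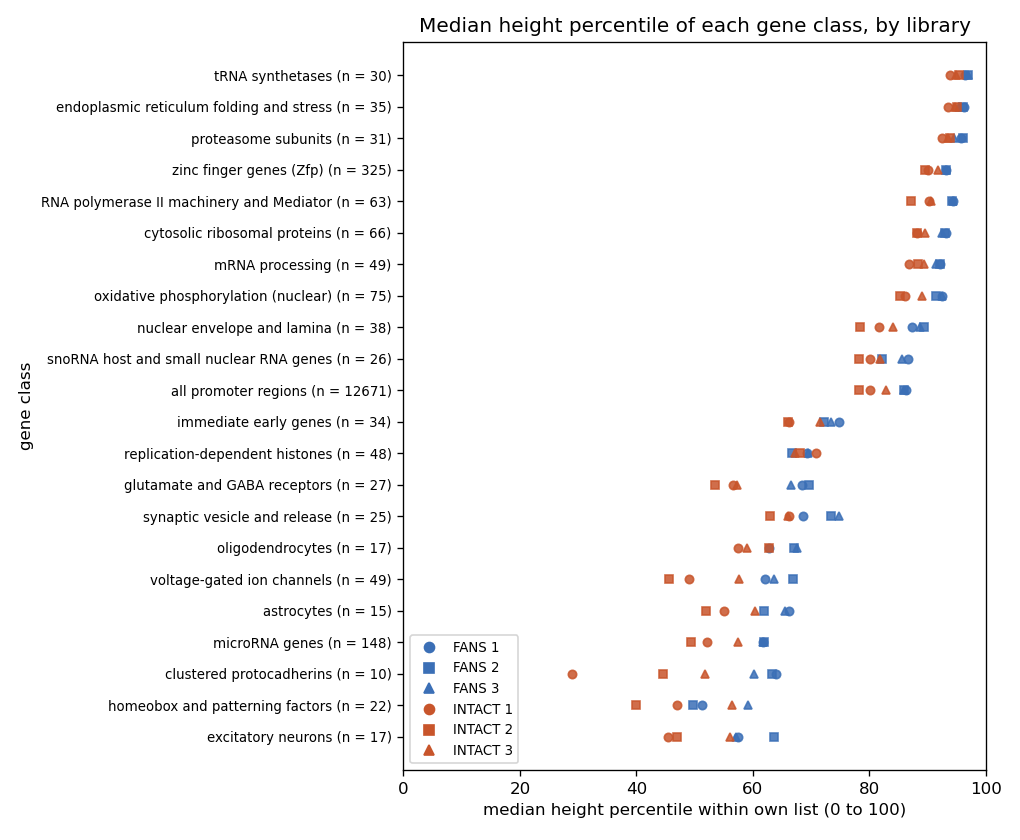
Median height percentile within its own list (horizontal axis, 0 to 100) of the promoter regions of each gene class with 10 or more regions, and of all promoter regions, in the 3 FANS (blue) and 3 INTACT (orange) libraries. Classes are ordered by their mean height, from excitatory neuron genes (48.5, bottom) to tRNA synthetases (95.4, top).

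Immediate early genes, which neurons induce within minutes of activity and which include Arc, had 34 member regions at 27 of the 28 genes on the autosomes. Their mean percentiles ran from 5.26 to 91.6, with a median of 71.7 by fold and 89.5 by p-value. Of the 34, 2 (5.88%) were lower and 1 (2.94%) higher, compared with 13.7% and 1.37% of all members. The differences were positive in 12 and negative in 22, and over all members 77.4% were negative. The median difference was -3.77 points, but 0.27 when heights were ranked among the regions open in all 6 lists, so its direction depended on the scaling. The Arc region at the start site had 49.2, 49.4 and 45.7 in FANS and 39.7, 36.0 and 50.2 in INTACT, groups that overlapped (difference -6.18 ± 5.87, limma adjusted p = 0.495). Fos, with 81.1, 83.4 and 87.7 in FANS and 85.1, 87.5 and 83.3 in INTACT, overlapped too, as did Npas4 and Jun.

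Egr1, a zinc finger factor induced by activity, had 82.4, 78.4 and 79.2 in FANS and 89.4, 87.9 and 87.6 in INTACT. Its promoter was thus called higher by 8.35 ± 2.05 points (limma adjusted p = 0.0272), but the difference was -0.97 by p-value percentile and the call was lost without FANS 2, FANS 3 or INTACT 1. Maff, a small Maf factor, had 77.5, 78.9 and 87.7 in FANS and 30.8, 37.0 and 12.7 in INTACT, and its call passed without each library. The region upstream of Gadd45b fell by 19.8 points, but its difference was -8.30 with ranks among the common regions (limma adjusted p = 0.0612). Its call was lost in 9 of 12 alternatives, among them 5 of the 6 fits without 1 library. At the Gadd45b start site the region overlapped between techniques (-5.57 ± 3.50, limma adjusted p = 0.299).

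Replication-dependent histone genes gave 48 regions at 44 of 69 genes, of which 0 were lower and 1 higher by limma (4 and 6 at an unadjusted p under 0.05). Their median difference was -0.86, and it was positive with ranks among the common regions (1.95), with centred log2 heights (0.07) and with p-value ranks (0.92). Many of these genes are near-identical copies in clusters, and how reads were divided among them was not tested. H4c17 was the region called higher, by 29.2 ± 6.17 points, a call lost without FANS 1 or FANS 3. Its summit lay 659 bp downstream of the nearest start site, which was outside the region. The 148 regions at microRNA genes had a median mean percentile of 56.3, with 19 lower (12.8%) and 4 higher and a median difference of -7.19. It was -3.00 with ranks among the common regions, and on log2 heights it differed from that of all members by -0.0024. RefSeq starts a microRNA at the end of its hairpin, not at the start of its primary transcript, so these are not all promoters of the microRNA. Of the 38 nuclear envelope regions 7 (18.4%) were lower, among them Nup85. Their median was below that of all members by percentile (-4.45) but not with ranks among the common regions (-1.86, against -1.89). Of the 26 snoRNA host and small nuclear RNA regions 4 (15.4%) were lower, a share near the 13.7% of all members. Of the 22 homeobox and patterning regions 1 (4.55%) was lower, Lhx2, a call lost in 8 of 12 alternatives, and of the 35 endoplasmic reticulum regions 3 (8.57%).

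The labels call the nuclei activated neuronal nuclei, and the promoters of marker genes were checked against that. Of 6 excitatory neuron markers, Camk2a and Neurod6 had a member region, and Tbr1 had a region in all 6 lists that was 2000 bp or wider. Of 6 inhibitory neuron markers none had a region in all 6 lists, and Sst and Vip had no peak near a start site in any list. For microglia 0 of 5 had a region in all 6 lists and 4 of 5 had no peak in any. Of 5 astrocyte markers only Slc1a3 was a member, at a mean percentile of 33.5, and of 5 vascular markers only Pdgfrb, at 16.4. Of 5 oligodendrocyte markers 4 were members: Mog, Mag, Mobp and Mbp, the first with 82.3, 80.5 and 80.2 in FANS and 78.6, 73.5 and 79.8 in INTACT. The marker genes of all these lists had 9 member regions, and limma called 0 of them in either direction (1 lower and 0 higher at an unadjusted p under 0.05). Of all members it called 13.7% lower and 1.37% higher. Over the longer lists, 2 of 15 astrocyte (13.3%) and 2 of 17 excitatory neuron regions (11.8%) were lower by limma, shares near that of all members. By limma 0 of 17 oligodendrocyte, 0 of 3 microglia and 0 of 9 inhibitory neuron regions were called, with 1, 1 and 3 lower at an unadjusted p under 0.05. Whether these counts of 0 differ from the share of all members was not tested. Of 9 vascular regions 1 was higher, at Abcc9, a channel subunit gene of pericytes, and 0 were lower by limma (3 lower and 1 higher at an unadjusted p under 0.05), with a class median of -1.47. The part of other cell types in the differences between techniques was not tested.

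Members whose start sites lay on opposite strands for different genes (1716) had a median mean percentile of 89.0 and a median difference of -2.06, with 11.0% lower and 1.11% higher. Those with 1 start site (9515) had 81.4, -3.55, 14.4% and 1.52%, and those with several start sites of 1 gene (1323) had 80.3, -3.78, 11.3% and 0.68%. The other 117 had several genes on the same strand. At non-coding start sites (1107) the median was -3.05, with 12.4% lower and 2.71% higher, and at coding ones (11564) it was -3.36, with 13.8% and 1.24%.

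The RNA tables gave a value for 11348 of the 11748 genes (96.6%). Genes with taller promoters had more nuclear RNA per kb of exon, up to the third of the 4 parts by height. In FANS of batch 1 the median normalised count per kb was 27.7, 52.1, 73.3 and 73.2 from the lowest to the tallest part, and in INTACT 27.4, 53.6, 74.9 and 74.3. Batches 2 and 3 had the same order, with 23.4, 44.7, 61.6 and 60.2, and 16.9, 34.97, 48.3 and 47.6 in FANS. The 144 genes with RNA values at promoters called higher in INTACT had low RNA, at 9.63 per kb in FANS of batch 1 compared with 54.6 for the 1623 genes of promoters called lower and 59.9 for all. The median log2 ratio of INTACT to FANS at the genes of promoters called lower was 0.04, 0.01 and 0.01 in batches 1 to 3, and over all genes 0.02, 0.00 and -0.01. These were compared as levels, with no test.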

How the data were processed

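ATAC-seq reads had been mapped by the authors to mm10 (Bowtie2), limited to proper pairs with a mapping quality of at least 10, freed of duplicates (Picard) and passed to MACS2 library by library. The deposited lists give, for each peak, the fold enrichment of the summit over the local background (a ratio), and its -log10 p-value and -log10 q-value, as the peak caller wrote them. Read depth per peak list is unknown, so no counting interval was given, and heights were ranked within a list. The deposited RNA values are a signal, gene counts that the authors divided by DESeq size factors within each batch, after alignment with STAR and counting with HTSeq. RNA libraries were matched to their technique and batch only.

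Peaks were merged, a region with several peaks of a list took the highest, and start sites were 31647 of 45756 curated transcripts of RefSeq on GRCm38, with distance measured from the edge of the region. Regions were named by the start site nearest to the median summit. Percentiles were compared with limma 3.58.1 in R 4.3.3 (lmFit, eBayes with trend, two-sided, Benjamini-Hochberg over 74590 regions), tested on simulated data. Members, gene classes, motifs and alternatives were chosen with earlier results of these data known. Named members were the 8 largest differences in each direction among called members without overlap, the 5 tallest and 5 lowest, the called member with the largest difference of each class in each direction, every member at an immediate early or marker gene, and those nearest to the limits of the rule. Some of these are not reported here. Mouse chromosome X was outside the rule. Alternatives were other ranks, scalings, thresholds and windows, a replicate block and fits without each library. The RNA used log2(mean + 1) and exon lengths of the curated transcripts. Other samples of the series were not analysed here.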

Additional observations from a re-analysis of the deposited data

Results flagged for a closer look

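In batch 1 of the RNA-seq, the median log2(normalised count + 1) over the genes of the promoter regions was 7.397 in the lowest of the 4 INTACT libraries. The other values lay close together, with a group median of 7.41 and a highest value of 7.41, and the gap to the next library exceeded Dixon's 95% critical value for a group of 4. That criterion by design marks about 1 in 20 groups by chance, and this was 1 of 6 RNA groups examined.

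The autosomal rule left out the X chromosome, where 457 promoter regions under 2000 bp wide had a peak in all 6 lists. Their median percentile was 86.4, 86.9 and 86.1 in FANS and 84.7, 83.2 and 86.5 in INTACT, ranges that overlapped. The median difference was -0.73 points. The 1465 X regions over 1 kb from a start site had a median difference of 2.49 points, and all 3 of their INTACT medians (63.2 to 69.9) were above the FANS medians (58.6 to 60.9).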

How the results depend on the processing

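The members called lower and higher in INTACT were 1737 and 173. Unscaled log2 heights gave 3239 and 100, with the median of all regions shifted by -0.16, ranks among the common regions 1518 and 329, centred log2 heights 1862 and 321, p-value ranks 6427 and 1118, and limma without trend 1004 and 87. Leaving out each library gave 560 to 2726 lower and 63 to 192 higher. Lower calls outnumbered higher calls under every one of these. The median difference ran from -4.28 to -2.35 without each library. The median GC was 60.05% over whole merged regions instead of 65.2%. The number of members stayed between 12027 and 13217 under the other windows, overlaps, q-values and widths. Of 42 calls at named members, 26 passed under all 12 other fits, and of 21 gene classes with 10 or more regions, 9 changed side relative to the median of all members in at least 1 of 5 scalings. The cause of these changes was not tested.

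The replicate numbers did not pair the libraries (correlations of same-numbered deviations 0.0003 to 0.0029), and a replicate block gave 1544 lower and 134 higher. Depth could not be assessed from the lists, and with technical replicates the tests say nothing about the spread between animals.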
